A study of Mus musculus with 10 samples.

Results

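Lipid-associated macrophages are macrophages that take up, store and export lipid in fat-laden tissue and in tumours, and a small set of genes is used to recognise them. The set examined here holds 10 of these genes, Trem2, Tyrobp, Gpnmb, Fabp4, Fabp5, Lpl, Plin2, Cd9, Lgals1 and Cstb, taken as the entries with these gene symbols among the 21938 protein-coding genes listed in each of the 10 libraries. All 10 genes were found in every library, and all 10 had at least 10 reads in at least 3 libraries, the minimum for testing that 11564 genes met. The macrophages were sorted by FACS from mammary tumours that had grown for 5 weeks in C57BL/6 mice that had received PyMT tumour cells in 2 mammary glands. PyMT cells are mouse mammary tumour cells driven by the polyoma virus middle T oncogene.

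In the 4 Mertk KO libraries, the macrophages came from mice that lacked Mertk in macrophages and carried unmodified tumour cells. In the 3 Ptdss1 knockdown libraries, the host mice were wild type and the tumour cells had reduced Ptdss1. In the 3 control libraries, wild-type mice carried unmodified tumour cells. Mertk is a receptor with which macrophages bind phosphatidylserine on dying cells through bridging proteins, and Ptdss1 encodes a phosphatidylserine synthase. The labels give neither the promoter that drives the Mertk deletion nor the knockdown method, and no library combines both changes. Nor do they say whether every library came from a different mouse, and the p-values therefore reflect only how far these libraries spread, part of which may be technical.

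The set covers successive steps of lipid handling. TREM2 is a surface receptor that binds lipids and lipoproteins and signals through the adaptor TYROBP. Lipoprotein lipase (Lpl) frees fatty acids from triglyceride, the fatty acid binding proteins encoded by Fabp4 and Fabp5 carry them inside the cell, and perilipin 2 (Plin2) coats the lipid droplets in which they are stored. Gpnmb, a glycoprotein of late endosomes and lysosomes, the tetraspanin Cd9, the galectin Lgals1 and the protease inhibitor cystatin B (Cstb) mark the same macrophage state.

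Values are log2 of normalised reads plus a pseudocount of 1, as the authors deposited them, and replicate numbers only name libraries. Depth was 10292592 to 25815071 reads per library. Ptdss1 knockdown replicate 1 and control replicate 2 stood apart by their low complexity, with 6995 and 9066 genes at 10 or more reads, against 9585 to 11523 in the other 8 libraries. Where leaving out such a library moved a member's fold change, the value without it is given for a part of the comparisons. All 15 macrophage marker genes, among them Adgre1, Cd68 and C1qa, had at least 10 reads in every library. Mertk itself was read at 8.95 to 10.63 in Mertk KO libraries and 9.26 to 10.97 in control libraries. The deleted part of Mertk is not given in the labels, so a total over the gene does not check the deletion. The Ptdss1 knockdown was made in tumour cells, so a macrophage library does not check it.

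Fabp4 and Fabp5 are neighbouring members of one gene family on mouse chromosome 3, at chr3:10204088-10208576 on the minus strand and chr3:10012548-10016607 on the plus strand of GRCm38. The first 180 bases of their coding sequences, from the GENCODE M21 transcripts, are shown because these related genes stood far apart in level. Capitals mark the longest run of bases that the coding sequences share, 12 bases.
Fabp4: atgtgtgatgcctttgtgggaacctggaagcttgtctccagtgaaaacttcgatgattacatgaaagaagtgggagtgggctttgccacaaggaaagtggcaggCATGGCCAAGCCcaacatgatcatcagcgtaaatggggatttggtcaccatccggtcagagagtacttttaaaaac
Fabp5: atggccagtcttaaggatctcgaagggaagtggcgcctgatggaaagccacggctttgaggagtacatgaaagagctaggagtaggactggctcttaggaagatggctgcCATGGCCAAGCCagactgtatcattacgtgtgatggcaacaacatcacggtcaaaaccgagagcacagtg
The whole coding sequences are 399 and 408 bases long, and 251 of 409 aligned columns (61.4%) were identical. No 75-base stretch, the read length, occurs in both transcripts. Of the 75-base stretches of the Fabp5 transcript, 12.0% also occur in the processed pseudogenes Gm6166 and Gm14328, so a part of Fabp5's reads could be assigned to either. The same holds for 12.5% of Cd9's stretches, which lie in the overlapping gene model Gm26728, and the libraries carry no strand. Trem2, Tyrobp, Gpnmb, Fabp4, Lgals1 and Cstb shared no such stretch with another gene, whereas Lpl shared 2.55% and Plin2 1.60%.

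Gpnmb varied most and Plin2 least of the 10 genes, and the promoters of both are shown because they are these extremes. The sequences run 250 bases before to 50 bases after the RefSeq gene start, in build GRCm38.p6. Capitals mark TGACTCA, the AP-1 motif, in Gpnmb (chr6:49036268-49036567, plus strand) and CACGTG, an E-box of the kind that MITF and TFE factors bind, in Plin2 (chr4:86670010-86670309, minus strand).
Gpnmb: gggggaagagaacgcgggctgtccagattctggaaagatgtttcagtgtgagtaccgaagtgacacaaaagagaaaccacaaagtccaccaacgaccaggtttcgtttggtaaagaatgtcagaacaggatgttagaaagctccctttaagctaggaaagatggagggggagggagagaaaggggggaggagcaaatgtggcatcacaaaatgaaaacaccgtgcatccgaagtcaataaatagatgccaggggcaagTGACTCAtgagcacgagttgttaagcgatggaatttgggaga
Plin2: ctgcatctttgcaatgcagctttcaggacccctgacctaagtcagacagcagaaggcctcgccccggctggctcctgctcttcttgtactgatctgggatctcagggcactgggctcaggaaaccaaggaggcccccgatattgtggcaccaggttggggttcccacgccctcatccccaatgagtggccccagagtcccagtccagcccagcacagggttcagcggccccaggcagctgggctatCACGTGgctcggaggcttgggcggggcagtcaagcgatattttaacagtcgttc
TGACTCA starts 8 bases past Gpnmb's start base, and CACGTG starts 4 bases before Plin2's. Both strands of the 4 members with a RefSeq promoter entry, Trem2, Gpnmb, Plin2 and Cd9, were searched for these motifs, for the related E-box CATGTG, for the TATA box with the letters TATAAA and for the PPAR-RXR direct repeat with 1 free base. Cd9 held 1 CATGTG, and no other match was found in these windows. Of 32851 promoters of the same length, 5.20% held TGACTCA. The E-box CACGTG occurred in 7.15%, the E-box CATGTG in 14.2%, the TATA box in 13.6% and the PPAR-RXR repeat in 0.0396%. A match describes the letters of the window.

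The 10 genes covered a wide range of levels. Per kilobase of transcript, Tyrobp was the highest, with a median of 58183 normalised reads over the 10 libraries and a range of 29747 to 115345. It exceeded the next gene, Lgals1, in all 10 libraries. Lgals1 (median 13452), Cstb (11039) and Fabp5 (10523) followed with overlapping ranges, and Lgals1 exceeded Cstb in 3 libraries only. Trem2 had a median of 5590.1 normalised reads per kilobase and Cd9 of 3898, again with overlapping ranges. Plin2 (1830.3) lay below Cd9 in all 10 libraries. Lpl (119.6), Gpnmb (48.8) and Fabp4 (41.6) were the low members, and the ranges of Lpl and Gpnmb, and of Gpnmb and Fabp4, overlapped. The receptor and its adaptor thus sat in the upper part of the set, and Fabp4, best known from fat cells, at the bottom.

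**Figure D1:**
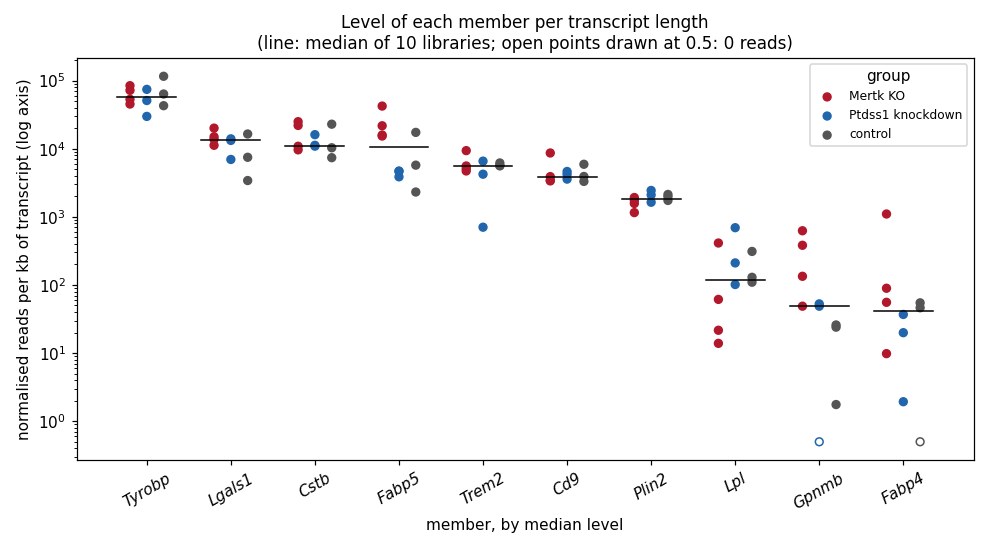
Normalised reads per kilobase of transcript (log axis) of the 10 genes in every library, ordered by their median (line), with Mertk KO libraries left of Ptdss1 knockdown and control libraries. Tyrobp lay above Lgals1 and Plin2 above Lpl in all 10 libraries, while Gpnmb and Fabp4 ranged down to 0 reads (open points, drawn at 0.5).

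The genes also differed in how much they varied. Plin2 ranged over 1.08 log2 units across the 10 libraries (SD 0.30), and 0.839% of the tested genes had a smaller SD. Cd9 ranged over 1.39 units (SD 0.44). Gpnmb ranged over 11.17 units (SD 3.34), and 98.1% of tested genes had a smaller SD, while Fabp4 ranged over 9.95 (SD 2.74). By this SD, the droplet coat protein gene was among the steadiest of all tested genes, and the lysosomal glycoprotein gene among the most variable. Their levels differed, and SDs were not compared among genes of like level. Plin2 had a higher mean than 94.5% of tested genes and Gpnmb than 37.4%. The lowest Gpnmb values rested on 0 reads in Ptdss1 knockdown replicate 1 and 8 reads in control replicate 1.

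Trem2, the receptor, had 12.43, 12.57, 12.32 and 13.31 in Mertk KO libraries, 9.58, 12.17 and 12.80 in Ptdss1 knockdown libraries, and 12.58, 12.58 and 12.71 in control libraries. Mertk KO replicate 4 was the highest and Ptdss1 knockdown replicate 1 the lowest by a wide gap, and the groups overlapped. Mertk KO against control gave a log2 fold change of 0.04 (SE 0.58), within the spread between libraries. Ptdss1 knockdown against control gave -1.11 (SE 0.62), which became -0.14 without knockdown replicate 1. Mertk KO against Ptdss1 knockdown gave 1.14 (SE 0.58), which became 0.18 without the same library.

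Tyrobp, the adaptor, had 15.39, 15.61, 14.72 and 14.95 in Mertk KO libraries, 14.12, 15.43 and 14.89 in Ptdss1 knockdown libraries, and 15.21, 14.64 and 16.07 in control libraries. All 3 groups overlapped, and Ptdss1 knockdown replicate 1 was again the lowest. The log2 fold changes were -0.14 (SE 0.41) for Mertk KO and -0.49 (SE 0.44) for Ptdss1 knockdown, both against control. The knockdown value was -0.14 without knockdown replicate 1 and -0.83 without control replicate 2, and the Mertk KO value -0.47 without control replicate 2. Neither receptor nor adaptor differed between groups beyond the spread between libraries.

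Gpnmb had 11.17, 8.96, 7.50 and 10.47 in Mertk KO libraries, 0, 7.50 and 7.62 in Ptdss1 knockdown libraries, and 2.91, 6.49 and 6.60 in control libraries. These rest on 223 to 1766 reads in Mertk KO libraries, 0, 192 and 319 reads in Ptdss1 knockdown libraries, and 8, 85 and 131 reads in control libraries. All 4 Mertk KO libraries lay above all 3 control libraries, and Mertk KO replicate 3 lay beside knockdown replicates 2 and 3. The 0 in Ptdss1 knockdown replicate 1 allows up to 3 reads, or 1.85 on this scale, for counting error only.

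The log2 fold change of Gpnmb was 4.19 (SE 1.82, 95% interval 0.37 to 8.02) in Mertk KO against control, with an unadjusted p of 0.0334 and an adjusted p of 1.00 by limma over all tested genes. Without Ptdss1 knockdown replicate 1, which lies outside this contrast and adds only to the shared spread, the SE was 1.03 and the adjusted p 0.518 in limma. Array weights, estimated from each library's spread in these same values, gave 5.33 (SE 0.94) and an adjusted p of 0.00831 in limma. Among the alternative settings, that was the one under which Gpnmb passed. Control replicates 1 to 3 had weights of 2.18, 0.28 and 1.26, so the control lowest in Gpnmb counted most. Mertk KO replicates 1 to 4 had 2.49, 3.59, 0.47 and 0.60, so the Mertk KO library lowest in Gpnmb counted least. Without control replicate 1, which had 8 Gpnmb reads, the log2 fold change was 2.98 (SE 1.96). In Ptdss1 knockdown against control, Gpnmb gave -0.29 (SE 1.95), which turned to 2.23 without knockdown replicate 1. In Mertk KO against Ptdss1 knockdown, Gpnmb gave 4.49 (SE 1.82), which was 1.97 (SE 1.16) without knockdown replicate 1.

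Fabp5 had 15.34, 14.38, 13.88 and 13.93 in Mertk KO libraries, 11.90, 12.17 and 12.17 in Ptdss1 knockdown libraries, and 11.16, 12.47 and 14.06 in control libraries. All 4 Mertk KO libraries lay above all 3 Ptdss1 knockdown libraries, whereas control replicate 3 lay within the Mertk KO range. The knockdown libraries were close together and inside the control range. Mertk KO against Ptdss1 knockdown gave a log2 fold change of 2.31 (SE 0.55, 95% interval 1.16 to 3.46), with an unadjusted p of 0.000519 and an adjusted p of 0.805 by limma.

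Against control, Fabp5 in Mertk KO libraries gave 1.83 (SE 0.55, 95% interval 0.68 to 2.97), with an unadjusted p of 0.00366 and an adjusted p of 1.00 by limma. That value was 2.58 without control replicate 3 and 1.12 without control replicate 1. Ptdss1 knockdown against control gave -0.48 (SE 0.58). In the F test over the 3 groups, Fabp5 had an unadjusted p of 0.00103, rank 6 among the 11564 tested genes, and an adjusted p of 0.930 in limma.

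Fabp4 had 3.29, 5.67, 6.34 and 9.95 in Mertk KO libraries, 1.45, 4.24 and 5.09 in Ptdss1 knockdown libraries, and 5.41, 0 and 5.64 in control libraries. Mertk KO replicate 4, with 1230 reads, stood far above the other 9 libraries, which had 0 to 99 reads each. All groups overlapped, and the log2 fold change of Mertk KO against control was 2.63 (SE 2.02), or 0.79 to 3.63 with each library left out in turn. The lowest value came without control replicate 2, where Fabp4 was listed at 0, and without Mertk KO replicate 4 it was 1.42. With array weights it was 0.17. Ptdss1 knockdown against control gave -0.09 (SE 2.16) for Fabp4, which was -1.93 without control replicate 2 and 0.98 without knockdown replicate 1.

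Fabp4, Lpl and Plin2 are also genes of fat cells, which surround mammary tumours. Of 10 adipocyte marker genes, Adipoq, the adipokine adiponectin, and Cidec, a droplet protein, had 0 reads in all 10 libraries. The markers summed to 0 to 88 reads in Mertk KO libraries, 2 to 19 in Ptdss1 knockdown libraries and 1 to 3 in control libraries. In Mertk KO replicate 4, where Fabp4 was highest, they summed to 6 reads. The 88 reads belonged to Mertk KO replicate 3.

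Fabp4 is also a gene of small-vessel endothelial cells. The summed log2 level of 11 endothelial markers was 9.50 to 10.40 in Mertk KO libraries, with 10.15 in Mertk KO replicate 4. It was 9.25 to 10.92 in Ptdss1 knockdown libraries and 9.55 to 10.30 in control libraries. In Mertk KO replicate 4, Pecam1 gave 1298 and Vwf 119 of the 1417 reads, and 9 of the 11 markers had 0 reads. The summed level of 9 fibroblast markers reached 10.84 in the same library, against 3.29, 10.11 and 2.74 in Mertk KO replicates 1 to 3, 1.45 to 8.52 in Ptdss1 knockdown libraries and 4.31 to 6.08 in control libraries. Its part in the Fabp4 value was not tested. In bulk RNA of a sorted population, fewer cells of a type and less RNA per cell cannot be told apart.

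Lpl had 5.86, 6.49, 7.99 and 10.73 in Mertk KO libraries, 11.48, 9.76 and 8.71 in Ptdss1 knockdown libraries, and 8.82, 10.32 and 9.06 in control libraries. Mertk KO replicates 1 to 3 lay below every other library, while Mertk KO replicate 4 lay above all control libraries, so the groups overlapped. The log2 fold change was -1.63 (SE 1.02, 95% interval -3.77 to 0.50) for Mertk KO against control. For Mertk KO against Ptdss1 knockdown it was -2.21 (SE 1.02), with an unadjusted p of 0.0427 and an adjusted p of 0.805 in limma. Both were larger without Mertk KO replicate 4, at -2.62 and -3.20. The value against control was -0.998 without Mertk KO replicate 1, and that against knockdown -1.47 without knockdown replicate 1. Ptdss1 knockdown against control gave 0.58 (SE 1.09), which turned to -0.17 without knockdown replicate 1.

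Plin2 had 11.53, 11.09, 11.82 and 11.68 in Mertk KO libraries, 11.59, 11.95 and 12.17 in Ptdss1 knockdown libraries, and 11.97, 11.86 and 11.68 in control libraries. All groups overlapped within this narrow range. The log2 fold changes against control were -0.31 (SE 0.39, 95% interval -1.13 to 0.52) for Mertk KO and 0.06 (SE 0.42, 95% interval -0.82 to 0.95) for Ptdss1 knockdown.

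Cd9 had 12.22, 12.04, 12.01 and 13.37 in Mertk KO libraries, 12.47, 12.10 and 12.33 in Ptdss1 knockdown libraries, and 11.99, 12.82 and 12.23 in control libraries. Mertk KO replicate 4 alone stood out, and all groups overlapped. Lgals1 had 13.42, 13.97, 13.55 and 13.13 in Mertk KO libraries, 12.44, 13.37 and 13.44 in Ptdss1 knockdown libraries, and 12.55, 11.41 and 13.68 in control libraries. Control replicate 2 was the lowest for Lgals1, and control replicate 3 lay inside the Mertk KO range. Cstb had 13.87, 13.69, 12.68 and 12.50 in Mertk KO libraries, 12.68, 13.24 and 12.72 in Ptdss1 knockdown libraries, and 12.60, 12.12 and 13.75 in control libraries. Here Mertk KO replicates 1 and 2 and control replicate 3 were high and the rest lay below them.

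Mertk KO against control gave log2 fold changes of 0.07 (SE 0.43) for Cd9, 0.97 (SE 0.48) for Lgals1 and 0.36 (SE 0.47) for Cstb. Ptdss1 knockdown against control gave -0.05 (SE 0.46) for Cd9, 0.54 (SE 0.51) for Lgals1 and 0.06 (SE 0.50) for Cstb. Without control replicate 2, the Mertk KO values were 0.30 for Cd9, 0.40 for Lgals1 and 0.0087 for Cstb, and the knockdown values 0.19, -0.03 and -0.30. None of the 6 values over all libraries was larger than the spread between libraries by limma's test.

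**Figure D2:**
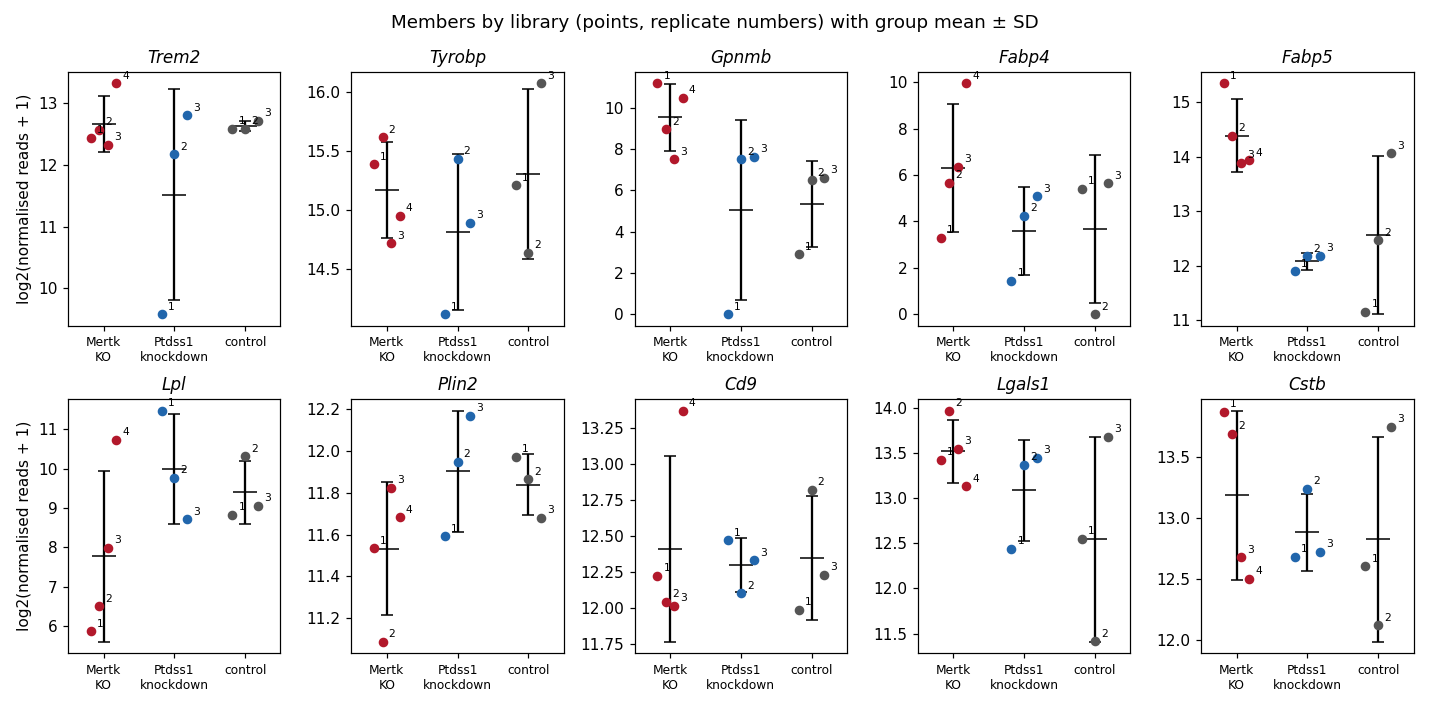
Log2(normalised reads + 1) of each gene in every library (points, labelled with replicate numbers), with the mean and SD of each group (bars). Gpnmb in Mertk KO libraries lay above all control libraries and Fabp5 above all Ptdss1 knockdown libraries, while Fabp4 and Cd9 were highest in Mertk KO replicate 4.

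Counted over the set, 0 of the 10 genes passed an adjusted p of 0.05 by limma in Mertk KO against control, where 0.0173% of tested genes, 2 of 11564, were called. In Ptdss1 knockdown against control, 0 of 10 passed and 0% of tested genes were called. In Mertk KO against Ptdss1 knockdown, 0 of 10 passed and 0% of tested genes were called. A voom fit in limma on the recovered reads also called 0 members in each comparison, and 2, 0 and 0 genes in all.

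At an unadjusted p below 0.05, the set held 2 genes in Mertk KO against control, where 2.06% of tested genes had such a p, and these were Fabp5 and Gpnmb. It held 0 genes in Ptdss1 knockdown against control (2.9% of tested genes) and 3 in Mertk KO against Ptdss1 knockdown (3.73%), Fabp5, Gpnmb and Lpl. Fold changes of Fabp5 and Gpnmb were above 0 and that of Lpl below 0. The Mertk KO libraries enter both of the comparisons with such genes, so these 2 lists are not separate evidence.

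Summed markers of NK and T cells and of mammary epithelium and tumour set the Mertk KO libraries apart. However, single genes, Klrk1 and Cdh1, gave most of several of these sums. Those of B cells, neutrophils and dendritic cells overlapped between all groups. The summed log2 level of 11 NK and T cell markers was 7.84 to 9.81 in Mertk KO libraries, 10.01 to 11.56 in Ptdss1 knockdown libraries and 11.05 to 11.87 in control libraries, so all Mertk KO libraries lay below the other 6. Of these markers, 1 to 8 had at least 10 reads in Mertk KO libraries. The numbers were 4 to 10 in Ptdss1 knockdown and 2 to 9 in control libraries, and 0 passed in any comparison. Klrk1 alone gave 57 of 613, 414 of 1063, 277 of 281 and 673 of 692 reads in Mertk KO replicates 1 to 4. In Ptdss1 knockdown replicates 1 to 3 it gave 2333 of 2397, 442 of 3209 and 1506 of 1677. In control replicates 1 to 3 it gave 799 of 4593, 1648 of 2041 and 1322 of 2897. Its large share was thus not particular to Mertk KO libraries. Reads of the T cell gene Cd3e were 15, 28, 0 and 1 in Mertk KO and 0, 0 and 68 in control libraries. The summed level of 13 mammary epithelium and tumour markers was 10.0035 to 11.4119 in Mertk KO libraries, 2.6329 to 9.9278 in Ptdss1 knockdown libraries and 8.3502 to 9.2000 in control libraries, so Mertk KO lay above the other groups. In each Mertk KO library 2 to 5 of the 13 had at least 10 reads. A single gene, Cdh1, gave most of the sum in 3 of the 4 Mertk KO libraries, with 612 of 715 reads in replicate 1, 1060 of 1255 in replicate 2 and 1849 of 1927 in replicate 3. Reads of Krt8 in Mertk KO replicates 1 to 4 were 69, 83, 1 and 1535. They were 0, 5 and 236 in Ptdss1 knockdown and 54, 0 and 98 in control libraries, so the groups overlapped. Reads of Krt18 in Mertk KO replicates 1 to 4 were 0, 52, 0 and 647. Fold changes against control were above 0 for 3 of 6 tested markers, and the epithelial marker Epcam had 0 reads in every Mertk KO and control library. Whether the sums reflect cells of these types was not tested, nor was the part of such cells in the values of Gpnmb, Fabp5, Lpl, Sdc1 and Spp1.

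Groups that did not overlap were found for 1 member in Mertk KO against control, Gpnmb, where 5.62% of tested genes did not overlap. There was 1 in Mertk KO against Ptdss1 knockdown, Fabp5 (5.23% of tested genes), and 0 in Ptdss1 knockdown against control (6.92%). In the F test over the 3 groups 0 members passed, the smallest adjusted p was 0.930 in limma, and 0% of tested genes were called. The F test gave 2 members an unadjusted p below 0.05, against 1.9% of tested genes.

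The median log2 fold change of the 10 genes was 0.21 in Mertk KO against control, where all tested genes had a median of 0.02. It was -0.07 in Ptdss1 knockdown against control, with -0.05 over all tested genes, and 0.39 in Mertk KO against Ptdss1 knockdown, with 0.11. Fold changes were above 0 for 7, 4 and 8 of the 10 genes in these comparisons, and for 50.9%, 48% and 54% of tested genes.

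**Figure D3:**
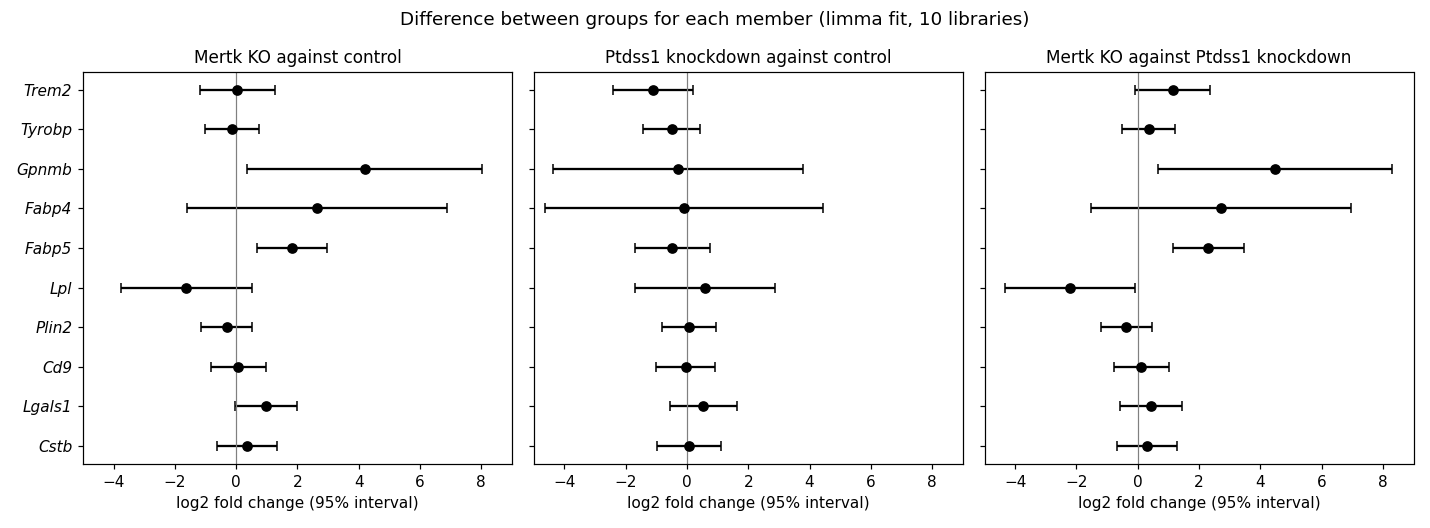
Log2 fold change of each gene with its 95% interval from the limma fit over 10 libraries, in Mertk KO against control (left), Ptdss1 knockdown against control (middle) and Mertk KO against Ptdss1 knockdown (right). Intervals clear of 0 belonged to Gpnmb and Fabp5 in the left panel and to Gpnmb, Fabp5 and Lpl in the right panel, and no adjusted p passed the threshold.

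Whether the 10 genes moved together was examined over the 45 pairs. Pearson's r over the 10 libraries had a median of 0.17 and ranged between -0.68 and 0.77, with 29 of 45 pairs above 0. All pairs of tested genes had a median of 0.05, with 53.1% above 0. Without Ptdss1 knockdown replicate 1 and control replicate 2, the median over the members' pairs was 0.0022 and 23 pairs were above 0. Over the 8 remaining libraries all pairs of tested genes had a median of 0.0040, with 50.3% above 0. The margin of the members over all gene pairs, seen over 10 libraries, was not seen over the 8 libraries of higher complexity.

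No pair passed a Benjamini-Hochberg adjustment over the 45 pairs. The smallest adjusted permutation p was 0.175 for r and 0.317 for Spearman's rho over 10 libraries (100000 permutations), and 0.282 for r and 0.205 for rho over 8 (exact, 40320 orders). At an unadjusted permutation p below 0.05 there were 6 pairs for r over 10 libraries and 5 over 8. The share of all gene pairs with such a p was not computed, so these counts do not show an excess among the members. After each group's mean was removed, the median r was 0.17 over 10 libraries and 0.02 over 8.

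Tyrobp and Cstb had the highest r over 10 libraries, 0.77 (rho 0.68, permutation p 0.00825 for r and 0.0349 for rho, adjusted 0.175 and 0.317). It was 0.85 without the 2 libraries farthest from the median of Tyrobp, and 0.81 over the 8 libraries. Both genes were high in control replicate 3 and in Mertk KO replicates 1 and 2. Lgals1 and Cstb had r = 0.73 (rho 0.67, permutation p 0.0117 and 0.0382, adjusted 0.175 and 0.317), or 0.62 without the 2 libraries farthest from the median of Lgals1.

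Gpnmb and Fabp5, the members with an unadjusted p below 0.05 in Mertk KO against control, had r = 0.75 (rho 0.76, permutation p 0.00897 and 0.0155, adjusted 0.175 and 0.317). It was 0.66 without the 2 libraries farthest from the median of Gpnmb, and 0.50 after group means were removed. Over 8 libraries it was 0.79, and 0.31 without the 2 farthest of those. Trem2 and Gpnmb had r = 0.74 but rho = 0.28, with permutation p of 0.0276 and 0.429 and adjusted values of 0.275 and 0.622. That r was -0.21 without the 2 libraries farthest from the median of Trem2, so it rested on them, and it was 0.23 over the 8 libraries. The receptor and its adaptor, Trem2 and Tyrobp, had r = 0.56 over 10 libraries (rho 0.20, permutation p 0.116 and 0.584, adjusted 0.307 and 0.719) and -0.15 over 8. In the 8 libraries the highest r was that of Trem2 and Cd9, 0.86 (rho 0.64, exact permutation p 0.0144 and 0.0962, adjusted 0.282 and 0.680), or 0.62 without the 2 farthest. Both were highest in Mertk KO replicate 4.

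Over 10 libraries Lpl had a median r of -0.53 with the other 9 genes, 2 of them positive, and Plin2 a median of -0.21, 3 of them positive. Over the 8 libraries the medians were -0.17 for Lpl, with 4 positive, and -0.46 for Plin2, with 2 positive. Lpl and Cstb had r = -0.68 (rho -0.56, permutation p 0.0349 and 0.0965, adjusted 0.275 and 0.395), and -0.55 without the 2 farthest libraries. Fabp5 and Plin2 had r = -0.63 (rho -0.68, permutation p 0.0436 and 0.0346, adjusted 0.275 and 0.317), and -0.60 without the 2 farthest libraries. Over the 8 libraries Fabp5 and Plin2 had r = -0.73 and rho = -0.90. Fabp5 and Lpl had r = -0.62 over 10 libraries (rho -0.53, permutation p 0.0564 and 0.123, adjusted 0.275 and 0.430), -0.53 over 8, and -0.33 over 10 after group means were removed.

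**Figure D4:**
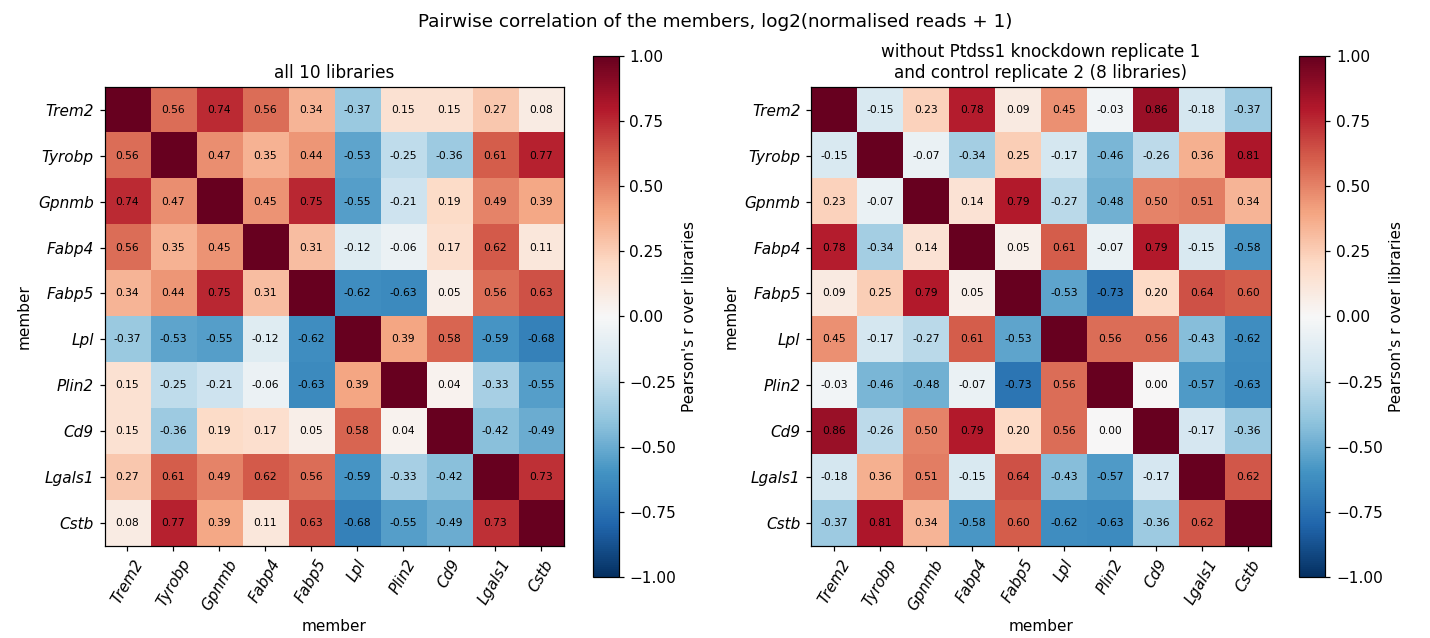
Pearson's r of every pair of the 10 genes over all 10 libraries (left) and over 8 libraries, without Ptdss1 knockdown replicate 1 and control replicate 2 (right), from -1 (blue) to 1 (red). The median over the 45 pairs was 0.17 on the left and 0.0022 on the right, where Tyrobp and Cstb (0.81) and Gpnmb and Fabp5 (0.79) kept high values.

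Single libraries held many of the extremes. Mertk KO replicate 4 had the highest value of 3 genes, Trem2, Fabp4 and Cd9, and Mertk KO replicate 1 of 3, Gpnmb, Fabp5 and Cstb. Ptdss1 knockdown replicate 1 had the lowest value of 3 genes, Trem2, Tyrobp and Gpnmb, and the highest value of Lpl. Control replicate 2 had the lowest value of 3 genes, Fabp4, Lgals1 and Cstb. How often each library held the extreme of all tested genes was not counted, so these counts are not a trait of the members.

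The genes whose pattern was most like that of 3 members were sought by Pearson's r among 8043 tested genes with a mean log2 value of at least 6. For Trem2 these were Hadhb (r = 0.99), Cog4 (0.99) and Slc35a1 (0.99) over 10 libraries, and Herpud2 (0.97), Selenoo (0.96) and Gpkow (0.95) over the 8. For Gpnmb they were Taf15 (0.95), Galnt6 (0.93) and Atp6v0d2 (0.93) over 10 libraries, and Plekhm3 (0.95), Kif21b (0.95) and Srpr (0.94) over the 8. For Fabp5 they were Zfp36l1 (0.91), Nos2 (0.84) and Htt (0.83) over 10 libraries, and Ktn1 (0.96), Alkbh5 (0.96) and Tcf7l2 (0.95) over the 8. The 2 sets of libraries named different genes for each of the 3 members. In Ptdss1 knockdown replicate 1 Trem2, Hadhb, Cog4 and Slc35a1 were all low, at 9.58, 4.45, 0.90 and 1.85. Gpnmb, Taf15, Galnt6 and Atp6v0d2 were low there too, at 0, 0.90, 1.45 and 0. Each named r was picked as among the highest of 8043 genes, so it is high partly by selection.

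Among 29 other genes described in lipid-associated macrophages, 1 passed in Mertk KO against control. Spp1, which encodes the secreted phosphoprotein osteopontin, had 15.41, 15.58, 17.54 and 14.81 in Mertk KO libraries, 13.77, 13.88 and 14.66 in Ptdss1 knockdown libraries, and 12.31, 12.93 and 12.58 in control libraries. The 3 groups did not overlap one another. Of all tested genes, 5.62% did not overlap in Mertk KO against control. The share was 6.92% in Ptdss1 knockdown against control and 5.23% in Mertk KO against Ptdss1 knockdown. Spp1 was higher in Mertk KO than in control libraries, with a log2 fold change of 3.23 (SE 0.51) and an adjusted p of 0.0317 by limma. The list that holds Spp1 was chosen with earlier results of these data known. The only other gene called, outside the set and chosen after its values were seen, was Fn1 (fibronectin), at 2.23 (SE 0.35) and an adjusted p of 0.0317 in limma. Left out one at a time, Mertk KO replicates 1, 2 and 3 and each control library took the number of called genes to 0.

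Fold changes of these other genes in Mertk KO against control were above 0 for 23 of 29, with a median of 0.27, where 50.9% of tested genes were above 0. An unadjusted p below 0.05 was found for 4 of the 29, all higher, against 2.06% of tested genes. In Ptdss1 knockdown against control 0 of 29 passed, 19 were above 0 (48% of tested genes), the median was 0.13, and 2 higher and 3 lower genes had an unadjusted p below 0.05 (2.9% of tested genes). In Mertk KO against Ptdss1 knockdown 0 passed, 18 were above 0 (54% of tested genes), the median was 0.43, and 7 genes, all higher, had an unadjusted p below 0.05 (3.73% of tested genes). Mmp12, a macrophage elastase, had group means of 12.38 in Mertk KO, 13.36 in Ptdss1 knockdown and 10.95 in control libraries. Ctsl, a lysosomal protease, had 14.39 in Mertk KO, 13.14 in Ptdss1 knockdown and 13.56 in control libraries. Neither passed in any comparison.

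Of 28 tested genes of TREM2 and TYROBP signalling, such as the kinase Syk, 0 passed in each of the 3 comparisons. Fold changes in Mertk KO against control were above 0 for 12 of them, with a median of -0.09, and in Ptdss1 knockdown against control for 17, with a median of 0.40. Trem1, an activating receptor of the same family, averaged 9.53 in Mertk KO, 6.97 in Ptdss1 knockdown and 9.57 in control libraries. Its value in Ptdss1 knockdown replicate 1 was 2.82, against 8.64 and 9.46 in the other 2 knockdown libraries.

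Of 13 tested genes of fatty acid binding and uptake, 0 passed in each comparison. Slc27a1, a fatty acid transporter, averaged 10.13 in Mertk KO, 7.07 in Ptdss1 knockdown and 9.69 in control libraries. Acsl4, an acyl-CoA synthetase, averaged 10.29 in Mertk KO, 8.31 in Ptdss1 knockdown and 10.12 in control libraries. Lrp1, a lipoprotein receptor, averaged 11.97 in Mertk KO, 11.91 in Ptdss1 knockdown and 10.87 in control libraries. For Slc27a1 and Acsl4, Ptdss1 knockdown replicate 1 was again the lowest library, at 3.62 and 5.29, and for Lrp1 the highest, at 13.58.

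Of 6 tested partners of lipoprotein lipase, 0 passed in each comparison. Fold changes in Mertk KO against control were above 0 for all 6, with a median of 0.64. Of all tested genes 50.9% were above 0, with a median of 0.02. In Ptdss1 knockdown against control 5 were above 0, with a median of 0.60, against 48% and -0.05 over all tested genes. Sdc1, a heparan sulfate proteoglycan that binds lipoproteins, had 7.97, 6.09, 6.66 and 7.91 in Mertk KO libraries, 0, 5.37 and 4.64 in Ptdss1 knockdown libraries, and 0, 0 and 4.32 in control libraries. All 4 Mertk KO libraries lay above the other 6. Of all tested genes, 5.62% did not overlap in Mertk KO against control and 5.23% in Mertk KO against Ptdss1 knockdown. The log2 fold change of Sdc1 against control was 5.72 (SE 1.87), with an unadjusted p of 0.00670 and an adjusted p of 1.00 in limma. Lmf1, a factor for lipase maturation, and Apoc2, a lipase activator, had fold changes of 0.98 (SE 0.98) and 0.90 (SE 0.55) in Mertk KO against control.

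Of 17 tested lipid droplet genes, 0 passed in each comparison, and the median log2 fold change was -0.08 in Mertk KO against control and 0.02 in Ptdss1 knockdown against control. Hilpda, an inhibitor of droplet lipolysis, averaged 12.45 in Mertk KO, 9.62 in Ptdss1 knockdown and 11.89 in control libraries, with 6.37 in knockdown replicate 1 against 10.86 and 11.64 in the other 2. Dgat1, which makes triglyceride, had 7.99 to 9.14 in Mertk KO libraries, 8.72 to 9.32 in Ptdss1 knockdown libraries and 9.66 to 10.28 in control libraries. Its log2 fold change was -1.52 (SE 0.62) in Mertk KO against control, with an adjusted p of 1.00 in limma. Cideb, a droplet protein, averaged 3.95 in Mertk KO, 0.80 in Ptdss1 knockdown and 1.13 in control libraries.

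Of 18 tested transcription factors that sense lipid or drive lysosomal genes, 0 passed in each comparison. Tfe3, which binds lysosomal gene promoters, averaged 9.48 in Mertk KO, 7.07 in Ptdss1 knockdown and 9.45 in control libraries. Nr1h3, the oxysterol receptor LXR-alpha, averaged 9.26 in Mertk KO, 6.31 in Ptdss1 knockdown and 7.83 in control libraries. Maf averaged 10.96 in Mertk KO, 9.90 in Ptdss1 knockdown and 10.66 in control libraries. In Ptdss1 knockdown replicate 1 these genes were far below the other 2 knockdown libraries, with Tfe3 at 2.42 against 9.82 and 8.96, Nr1h3 at 1.45 against 8.80 and 8.67, and Maf at 8.22 against 11.10 and 10.37. The medians of this list were 0.04 in Mertk KO and -0.14 in Ptdss1 knockdown, both against control.

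Lists for the families of Cd9, Lgals1 and Cstb gave 0 called genes in each comparison. They held 17 tested tetraspanins, 6 tested genes of the galectin list and 3 tested cystatins. Of the tetraspanins, Tspan7 averaged 7.86 in Mertk KO, 2.01 in Ptdss1 knockdown and 3.75 in control libraries. Tspan13 averaged 9.98 in Mertk KO, 10.49 in Ptdss1 knockdown and 11.31 in control libraries, and Cd63 15.15 in Mertk KO, 14.21 in Ptdss1 knockdown and 15.10 in control libraries. In the galectin list, Lgals7, Lgals8 and Lgals3bp had log2 fold changes of 2.91 (SE 1.72), 0.78 (SE 0.63) and 0.24 (SE 0.54) in Mertk KO against control. Lgals3bp encodes a protein that binds a galectin and is not itself a galectin. The cystatins Cst3, Cst6 and Cst7 had -0.60 (SE 0.46), -1.35 (SE 1.71) and 0.75 (SE 0.81) in the same comparison.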

How the data were processed

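Per the labels' protocols, mRNA of sorted macrophages was copied with the SMART-Seq v4 kit, amplified by 16 PCR cycles and made into libraries with a ThruPLEX kit, which keeps no strand, and all libraries were read in 1 run of 75 single-read cycles on a NextSeq instrument. The submitters' processing notes name STAR, RSEM and mm10, with no version; which tool normalised the reads, and on which annotation, is not stated in the labels used. The authors deposited 1 table per library whose unit no header states. The deposited values, on a log2 scale, start at 0 and, once log2(value + 1) is undone, fall on equal steps that gave whole reads, within 0.01 of a read, for 100.0% of values in every library. They were read as log2 of reads over a library size factor, plus 1. Depths are totals of these reads, which carry no molecular identifiers, so limits from them cover counting error only.

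The members and gene lists were chosen with earlier results of these data known. Genes with at least 10 reads in at least 3 libraries were tested with limma-trend (limma 3.58.1, R 4.3.3; robust empirical Bayes moderation), 1 mean per group over all 10 libraries and no covariate, two-sided, with Benjamini-Hochberg adjusted p below 0.05 as the threshold. A count model was written for files holding counts; the values being log2, the limma test stood as planned, with limma-voom on the recovered reads as an alternative. Groups were taken from sample titles. Adding 1 before taking log2 alters fold changes of low genes, and means of log2 values can turn the sign where a library has 0 reads. Gpnmb in Ptdss1 knockdown against control gave -0.29, while mean normalised reads per kilobase were 33.8 against 17.2. Correlations used permutation tests in Python 3.11.15 with numpy 2.4.6. Levels per kilobase used the longest protein-coding transcript of GENCODE M21 (GRCm38), in which all 21938 gene IDs were found, and 14 symbols turned into dates were restored by ID. Every member is named; of each list the called genes, else the 3 tested genes with the smallest F-test p, are given, and for Trem2, Gpnmb and Fabp5 the 3 genes of highest r. The alternatives were other size factors, no or a stricter filter, a pseudocount of 8, no robust moderation, array weights, a covariate for detected genes, only the groups compared, a threshold of 0.1, and leaving out single libraries or both libraries of low complexity. The fit was tested on simulated data.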

Additional observations from a re-analysis of the deposited data

Results flagged for a closer look

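Cd9 in Mertk KO replicate 4 was 13.37 on the log2 scale, against 12.22, 12.04 and 12.01 in the other 3 Mertk KO libraries. Its gap to the nearest of them was 0.846 of the group's range, above the critical value of 0.829 for groups of 4. The 10 genes were each checked in the Mertk KO group, the only group large enough, and chance alone marks about 1 in 20 such groups. Without that library the log2 fold change of Cd9 was -0.25 in Mertk KO against control and -0.21 in Mertk KO against Ptdss1 knockdown, so both turned sign, and neither was past the threshold with or without it. The same library had the highest Trem2 and Fabp4 values and, among Mertk KO libraries, the highest summed fibroblast markers, 10.84. It also had the highest summed mammary epithelium and tumour markers, 11.41, with 1535 reads of Krt8 and 647 of Krt18. The part of such cells in the Cd9 value was not tested.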

How the results depend on the processing

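Over 21 alternatives, 590 of 630 fold changes of the 10 genes kept their direction and side of the threshold, 38 turned sign and 2 newly passed it. The 2 came with array weights, under which Gpnmb in Mertk KO against control (5.33, SE 0.94) and Fabp5 in Mertk KO against Ptdss1 knockdown (2.48, SE 0.48) had limma adjusted p of 0.00831 and 0.0492. Array weights gave 1 called member in each of these comparisons, and 25 and 35 called genes in all, with 2 in Ptdss1 knockdown against control. Called genes in Mertk KO against control were otherwise 0 with upper-quartile factors, no filter or the stricter filter of 50 reads, 1 without robust moderation, and 0 to 4 with 1 library left out. In Mertk KO against Ptdss1 knockdown there was 1 with a covariate for detected genes and 1 without both libraries of low complexity. The median pairwise r was 0.0022 without both, and 0.093 to 0.226 with 1 library left out.

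No value that turned sign was past the threshold. In Mertk KO against control, Trem2 turned to -0.058 with array weights and -0.030 with the covariate. In Mertk KO against Ptdss1 knockdown, array weights gave -0.025 for Trem2 and -0.056 for Cd9. In Ptdss1 knockdown against control, upper-quartile factors gave -0.15 for Plin2 and -0.16 for Cstb, and shifted the median of all genes by -0.21 there and by 0.22 in Mertk KO against Ptdss1 knockdown. Gpnmb there was 0.36 with a pseudocount of 8, 3.07 with array weights, 0.42 with the covariate and 2.81 without both libraries. Fabp4 was 0.089 with voom and 0.38 with the covariate. Cd9 was 0.14 with array weights and 0.11 without both, and Cstb -0.094 and -0.20. Leaving out 1 library gave, in Mertk KO against control, -0.18 to 0.15 for Trem2, -0.47 to 0.24 for Tyrobp and -0.25 to 0.30 for Cd9, and -0.21 to 0.24 for Cd9 in Mertk KO against Ptdss1 knockdown. In Ptdss1 knockdown against control it gave -1.58 to 2.23 for Gpnmb, -1.93 to 0.98 for Fabp4, -1.18 to 0.27 for Fabp5, -0.17 to 1.22 for Lpl, -0.068 to 0.22 for Plin2, -0.23 to 0.19 for Cd9, -0.030 to 1.10 for Lgals1 and -0.30 to 0.52 for Cstb. The cause was not tested.

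No paired analysis was possible because replicate numbers were given in accession order and only name libraries. Gpnmb and Fabp4 each had 0 reads in 1 of the libraries with few detected genes, where 3 reads would be 1.85 and 2.05 on the log2 scale.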
